A study of Caenorhabditis elegans with 2 samples.

Results

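The microRNA genes of Caenorhabditis elegans were examined for regions bound by DMD-4, a transcription factor of the DM-domain family, in chromatin immunoprecipitation and sequencing (ChIP-seq) data from L2 larvae. Members were the genes of biotype miRNA in the Ensembl WBcel235 annotation whose names begin with mir-, let-, lin-4 or lsy-6, which gave 260 genes of 46926 annotated. A gene was counted where the summit of a region, the position of its highest signal, fell between 1000 bp upstream and 200 bp downstream of its annotated start. Chromatin came from whole, mixed-sex larvae of strain OP418, which carries the unc-119(tm4063) III allele and wgIs418, a stable transgene for DMD-4 with a C-terminal GFP-FLAG tag. The series has 1 group of 2 biological replicates and no second condition, and signal from whole animals cannot be placed in a tissue. Read depth is unknown, because only called regions were analysed.

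MicroRNAs are short RNAs cut from a hairpin precursor. Bound to an Argonaute protein, they pair with messenger RNAs mainly through the seed, bases 2 to 8 from the 5′ end, and lower the output of their targets. In C. elegans the class was found through lin-4 and let-7, which time the passage between larval stages, and microRNAs with the same seed often act redundantly. Some are transcribed from their own promoters between genes, while others lie within introns of a host gene and can be transcribed with it.

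The results turn in part on the mir-51 family, whose 6 genes share a seed and each had a candidate region. These genes are broadly expressed and needed for embryonic development, and their seed is that of vertebrate miR-100. The mature sequences, from RefSeq WBcel235, show the shared seed in capitals. They lie at IV:11026074-11026096 on the minus strand for mir-51, IV:14034024-14034047 on the plus strand for mir-52 and IV:11027653-11027676 on the minus strand for mir-53. Those of mir-54, mir-55 and mir-56 lie on the minus strand of X, at X:13145011-13145034, X:13144842-13144864 and X:13144706-13144727.
mir-51: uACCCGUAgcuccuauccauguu
mir-52: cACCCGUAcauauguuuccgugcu
mir-53: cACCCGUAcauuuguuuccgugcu
mir-54: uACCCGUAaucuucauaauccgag
mir-55: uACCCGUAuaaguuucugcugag
mir-56: uACCCGUAauguuuccgcugag

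The genomic sequence within 100 bp of a summit is shown for the 3 regions that cover precursors at the loci described first. The mir-52 and mir-2214 regions passed the authors' reproducibility threshold, and the region over mir-54 and mir-55 belongs to the mir-51 family. Sequences are from the RefSeq WBcel235 genome in the direction of transcription of the microRNA, at IV:14033909-14034109 on the plus strand, III:7278559-7278759 on the plus strand and X:13144847-13145047 on the minus strand. Capitals mark mature microRNA arms, and an arm that runs past the edge is cut off there. The summit is the middle base of each.
mir-52: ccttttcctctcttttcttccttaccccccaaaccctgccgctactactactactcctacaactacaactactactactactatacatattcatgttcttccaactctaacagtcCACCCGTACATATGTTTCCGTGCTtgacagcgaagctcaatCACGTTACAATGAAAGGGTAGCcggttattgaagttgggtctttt
mir-2214: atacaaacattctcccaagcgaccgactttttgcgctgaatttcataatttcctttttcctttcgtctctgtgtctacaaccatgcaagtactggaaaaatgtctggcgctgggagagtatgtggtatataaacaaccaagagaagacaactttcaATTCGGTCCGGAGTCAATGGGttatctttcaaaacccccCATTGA
mir-54 and mir-55: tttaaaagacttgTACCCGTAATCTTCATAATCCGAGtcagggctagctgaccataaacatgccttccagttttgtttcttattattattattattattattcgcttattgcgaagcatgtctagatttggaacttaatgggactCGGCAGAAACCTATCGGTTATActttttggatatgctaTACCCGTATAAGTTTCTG

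The share of microRNA genes with a DMD-4 region could not be told from that of protein-coding genes at this number of genes. In the list called by the authors on both replicates together, 40 of 260 microRNA genes had a candidate region in the window, or 15.4% (95% Clopper-Pearson interval 11.2 to 20.4). The same window held one at 15.9% of 19985 protein-coding genes and at 18.8% of all annotated genes, and the protein-coding share lay inside the interval of the microRNA genes. A list of candidates is long by design, with 11281 regions, since the irreproducible discovery rate (IDR) method needs weak regions to judge which ranks repeat between replicates. The authors' IDR list held 212 regions, and 3 microRNA genes had such a peak, or 1.15% (0.239 to 3.33), against 0.836% of protein-coding and 0.546% of all annotated genes. Among genes with a candidate region, 3 of 40 microRNA genes had an IDR peak, against 5.26% of 3177 protein-coding genes. These intervals cover the counting of genes only.

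**Figure D1:**
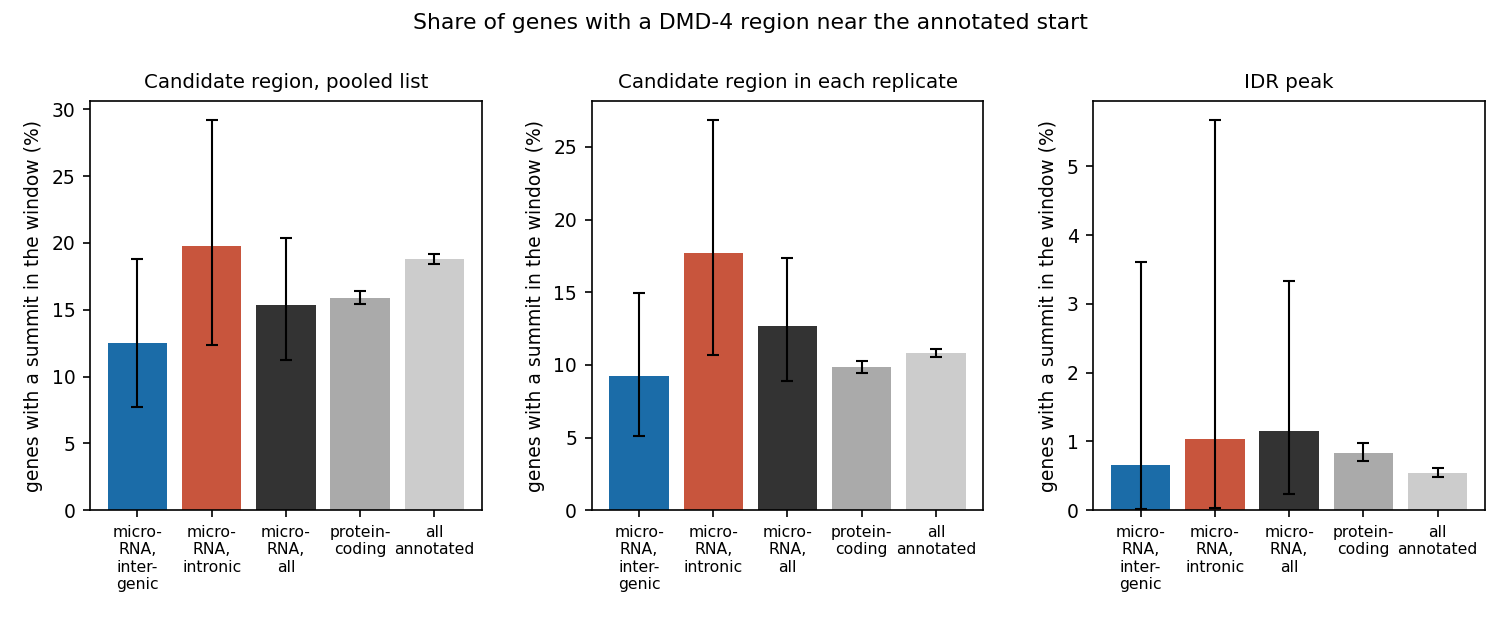
Share of genes (%) with a DMD-4 region summit between 1000 bp upstream and 200 bp downstream of the annotated start. Panels give the list called on both replicates together, genes with a summit in both replicates' own lists, and the IDR list. Bars give intergenic, intronic and all microRNA genes, then protein-coding and all annotated genes, with 95% Clopper-Pearson intervals; the protein-coding share of 15.9% in the first panel lies within the interval of every microRNA bar.

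The IDR peaks lay at mir-354, mir-2214 and mir-52, in a different setting at each. The signal given here is the authors' enrichment value of a region, whose scale the sources used here do not give. It ranks regions within a list only, so replicates are compared by percentile within the replicate's own list, where a high percentile is a strong region. A replicate's value is that of its strongest region overlapping the region named.

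At mir-52, which lies between protein-coding genes at IV:14034008-14034107 on the plus strand, 2 regions were IDR peaks. The first, at IV:14033834-14034183, had a signal of 51.6 and ranked 173 in the list of both replicates together, with signals of 36.8 in replicate 1 and 16.5 in replicate 2. Its summit lay 1 bp inside the precursor, so the region covers the hairpin itself, and non-coding RNA genes are annotated there too. The second, at IV:14033012-14033361, had its summit 821 bp upstream and a signal of 47.2, near the lowest signal of an IDR peak, 46.4. Its signals were 33.7 in replicate 1 and 21.5 in replicate 2. A further candidate region with a signal of 38.2 had its summit 490 bp downstream, outside the window. There replicate 1 had 9.26 and replicate 2 had 26.5. The IDR peak over the precursor was at percentile 99.3 in replicate 1 and 95.3 in replicate 2, and the upstream peak at 99.3 and 98.1, so both stood high in each list.

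At mir-2214, which lies in an intron of B0361.11 on the same strand at III:7278715-7278778, the region III:7278484-7278833 had its summit 56 bp upstream. Its signal was 61.4, rank 120, and the overlapping regions had 29.1 in replicate 1, at percentile 98.9, and 28.5 in replicate 2, at percentile 99.1. The region covers the precursor and lies in the window of no protein-coding start, that of B0361.11 included.

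The strongest region with its summit in the window of a microRNA gene was that at mir-354, on the minus strand of chromosome I at I:14468382-14468491. It had a signal of 97.8, rank 63, at I:14469207-14469556, with signals of 47.1 in replicate 1 and 59.1 in replicate 2. Its summit lay 891 bp upstream of mir-354 and away from the hairpin. The precursor overlaps an exon of rps-20, a ribosomal protein gene on the same strand, and the summit also falls in the windows of rps-20 and of ekl-4. With each region given only to its nearest annotated start, mir-354 was not counted and mir-52 and mir-2214 were.

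**Figure D2:**
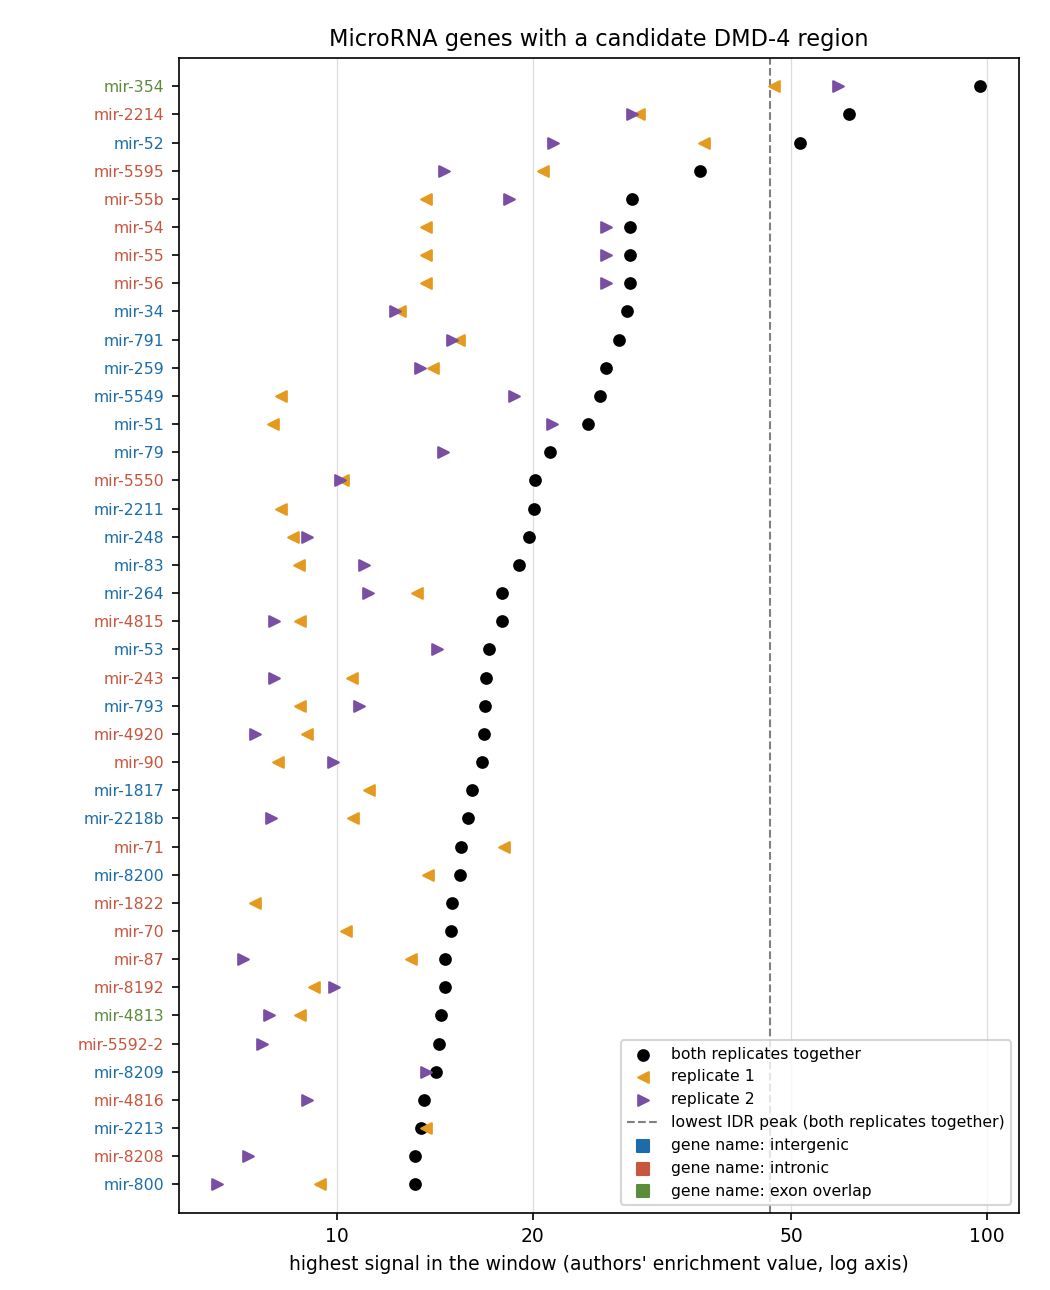
Highest signal (log axis) of the regions with a summit in the window of each of the 40 microRNA genes with a candidate region, in the list of both replicates together and in each replicate's list where it has a region in the window. Names are coloured by the place of the gene, and the dashed line is the lowest signal of an IDR peak, 46.4, which mir-354, mir-2214 and mir-52 pass.

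The mir-51 family was the only group of 3 or more microRNA genes with a common seed in which every gene had a candidate region. There were 16 such groups among the 458 mature sequences of the 260 genes. In 12 of them no gene had a region, and apart from the mir-51 family at most 1 did in each of the others. Over all 260 genes the share was 15.4%, at which groups this small can hold none or 1. The 6 genes of the mir-51 family shared 8 distinct regions at 3 loci, so they are not 6 independent cases, and 1 of them, mir-52, had IDR peaks.

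In the mir-51 and mir-53 locus on chromosome IV, regions were weaker than at mir-52, and none overlapped a region of both replicates. The strongest region at mir-51, IV:11026776-11027125, had its summit 839 bp upstream and a signal of 24.3. Replicate 2 had a region there with a signal of 21.4, and replicate 1 had none. A second region at mir-51 had its summit 151 bp downstream of the start and a signal of 13.8, with 7.96 in replicate 1 and no overlapping region in replicate 2. The replicates therefore each had a region in the mir-51 window, but at different places. At mir-53 the region IV:11027411-11027760 covered the precursor with a signal of 17.1. Replicate 2 had a region of 14.3 there and replicate 1 had none.

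The genes mir-54, mir-55 and mir-56 form a cluster on X, within an intron of F09A5.3 and on the opposite strand from it, and mir-55b is annotated on the other strand across mir-55. Upstream of the cluster, the region X:13145254-13145603 had a signal of 28.3, rank 871, with 12.9 in replicate 1 and 25.9 in replicate 2. Its summit lay 335 bp upstream of mir-54, 505 bp upstream of mir-55 and 642 bp upstream of mir-56. An overlapping region at X:13145504-13145853 had a signal of 25.9 in the list of both replicates. The region over the precursors of mir-54 and mir-55, X:13144772-13145121, had a signal of 21.8, while replicate 1 had 13.7 and replicate 2 had 8.25. Upstream of the cluster these values were at percentile 82.5 of replicate 1 and 98.9 of replicate 2, and over the hairpins at 86.0 and 48.2, so the replicates placed their strongest signal differently. The window of mir-55b also held 2 regions on the far side of the cluster, with signals of 28.4 and 17.9.

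**Figure D3:**
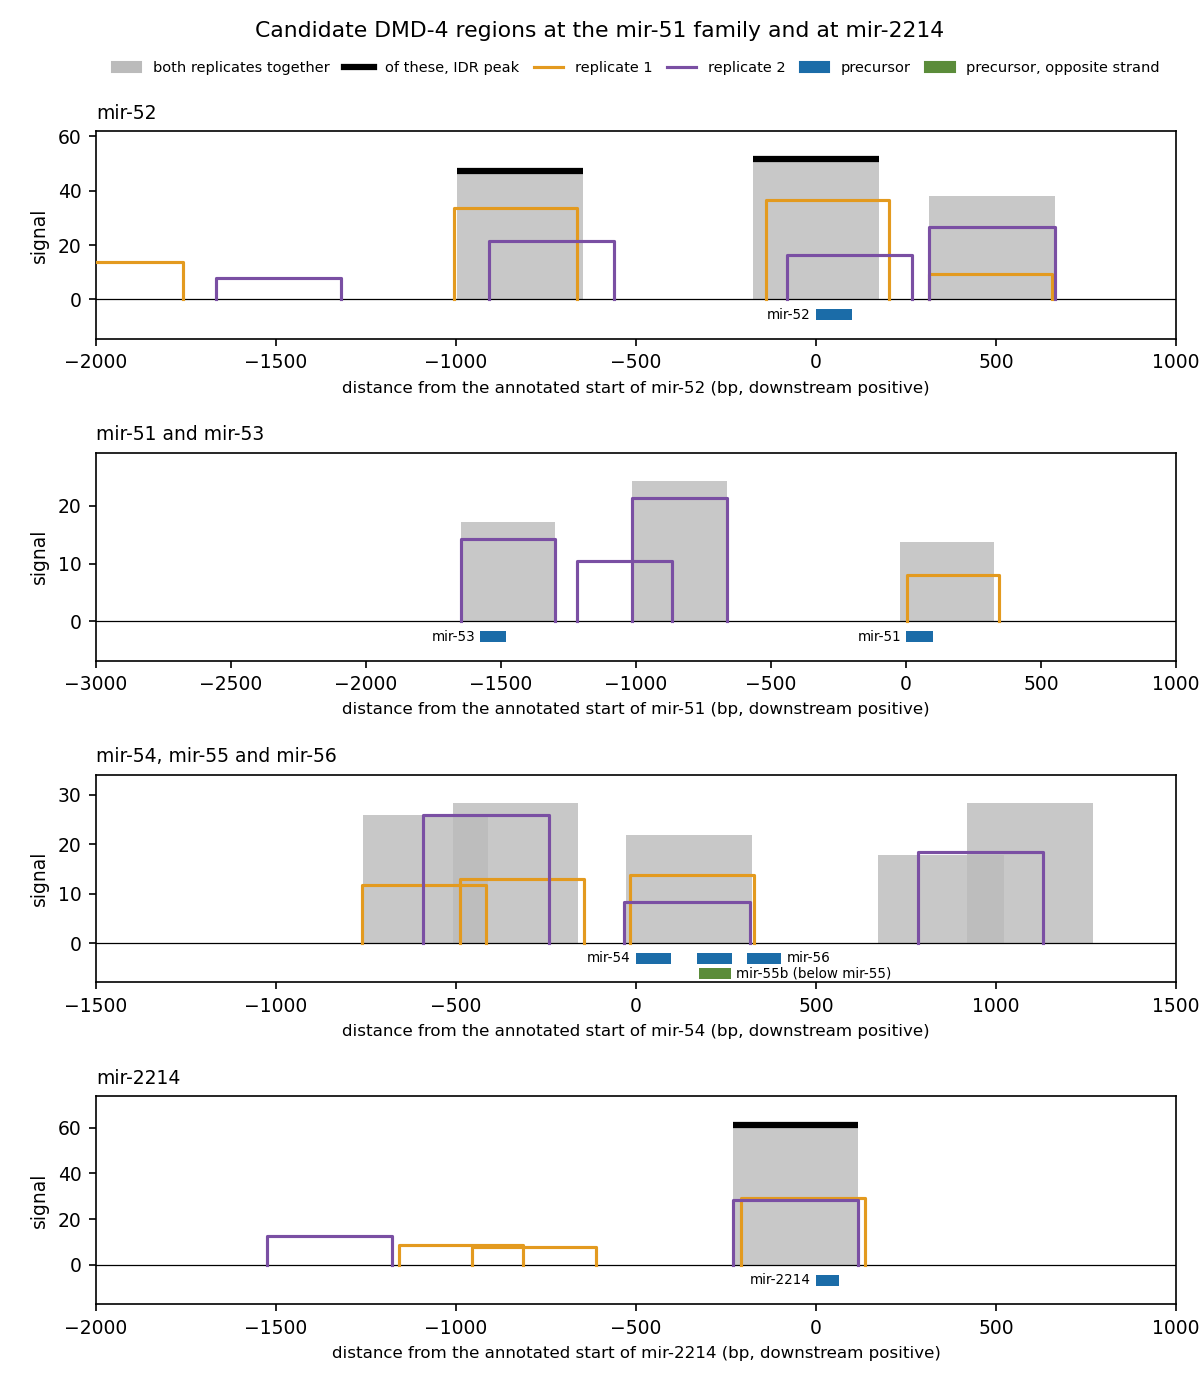
Candidate DMD-4 regions at the loci of the mir-51 family and at mir-2214, by distance from an annotated start (bp) and height as the authors' signal, with grey blocks for both replicates together, black bars for IDR peaks and outlines for each replicate. Blue and green blocks are precursors; at mir-52 and mir-2214 an IDR peak covers the precursor, while replicate 1 has no region over the strongest mir-51 region, which reaches 24.3.

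The 15 genes without an IDR peak that had the highest signals ranged from 36.1 to 19.0. The first was mir-5595, which lies within an intron of nurf-1, a chromatin remodelling gene on the opposite strand. Its region, II:14399687-14400036, had a signal of 36.1, while replicate 1 had 20.7 and replicate 2 had 14.6, and lies also in the window of nurf-1. Besides mir-51 and the X cluster, this set held mir-34, mir-791, mir-259, mir-5549, mir-79, mir-5550, mir-2211, mir-248 and mir-83.

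At mir-34, the worm member of a family known for its part in stress responses, the region X:2969973-2970322 had its summit 300 bp upstream and lay in no protein-coding window. Its signal was 28.0, with 12.5 in replicate 1 and 12.3 in replicate 2. At mir-83, which acts with mir-34 in the migration of the gonad's distal tip cells, the stronger of 2 overlapping regions had a signal of 19.0, while replicate 1 had 8.72 and replicate 2 had 11.0. The summits there lay 917 and 687 bp upstream. At mir-791, a microRNA of neurons that sense carbon dioxide, a region 863 bp upstream had a signal of 27.1, while replicate 1 had 15.4 and replicate 2 had 15.03. At mir-79, which has a role in neuronal migration, the signal was 21.3, with 14.5 in replicate 2 and no overlapping region in replicate 1. Of these 4 genes, mir-34, mir-83 and mir-791 thus had an overlapping region in each replicate, and mir-79 in replicate 2 only. In replicate 1 the region at mir-83 stood only at percentile 41.6, against 80.5 at mir-34 and 91.3 at mir-791.

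Other regions of this set belong also to neighbouring protein-coding starts. The region at mir-259, with a signal of 25.9, lies in the windows of F25D1.8 and of degt-1, a gene for an ion channel subunit. The region at mir-5549, with a signal of 25.4, covers the precursor and lies in the windows of the elongation factor gene eef-1A.1 and of rfc-4, a subunit of the clamp loader of DNA replication. It stood low in replicate 1, with 8.20 at percentile 32.4, and high in replicate 2, with 18.7 at percentile 97.0. The region at mir-5550, with a signal of 20.2, lies in the window of its host kgb-1, a stress-activated kinase gene on the opposite strand. The last of the set, mir-2211 and mir-248, had signals of 20.1 and 19.8 in no protein-coding window.

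The remaining 22 genes with a candidate region had highest signals of 18.0 at mir-264 to 13.2 at mir-800, close to the list's minimum of 13.0. They were mir-264, mir-4815, mir-53, mir-243, mir-793, mir-4920, mir-90, mir-1817, mir-2218b, mir-71, mir-8200, mir-1822, mir-70, mir-87, mir-8192, mir-4813, mir-5592-2, mir-8209, mir-4816, mir-2213, mir-8208 and mir-800. Among them, mir-71, which lengthens life span, had a signal of 15.5 in a region covering its precursor, at percentile 37.8 of the list of both replicates. The overlapping regions had 18.4 in replicate 1, at percentile 95.5, and 16.2 in replicate 2, at percentile 95.1. By summits in the window, replicate 1 had a region of 18.1 and replicate 2 had none. The gene is therefore not counted among those with a region in each replicate. At mir-243, which directs a small RNA response with the Argonaute RDE-1, the signal was 16.9.

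The founding microRNAs had no candidate region in the window. For lin-4, which represses lin-14 to end the first larval stage, replicate 1 had a region with a signal of 12.3 and replicate 2 had none. For let-7, which represses lin-41 late in larval life, no list had a region in the window. The Ensembl record of let-7 is its long primary transcript, X:14743590-14745321 on the minus strand, which overlaps an exon of C05G5.7, so the start used is that of the transcript and not of the hairpin. The nearest candidate region upstream, X:14746981-14747330, had its summit at 1835 bp and a signal of 32.9, outside the window. For lsy-6, which sets the left identity of a pair of taste neurons, no list had a region.

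Most microRNA families had none either, but only 15.4% of all microRNA genes had a candidate region. At that share a family of 2 to 8 genes can have none. Of the 7 genes listed for the let-7 family, mir-793 had candidate regions, at 529 and 247 bp upstream with signals of 16.9 and 16.5. It is not among the 5 genes with the seed GAGGUAG, which are let-7, mir-48, mir-84, mir-241 and mir-795. None of those 5 had a candidate region in the window. Of them, mir-241, which with mir-48 and mir-84 represses hbl-1, had a region in each replicate. These had signals of 9.46 in replicate 1 and 6.45 in replicate 2, and the list of both had none. At mir-48 a candidate region with a signal of 20.6 had its summit 326 bp downstream, past the window. No gene of the mir-35 family (8 genes), which is essential in the embryo, had a candidate region in the window. Of these, mir-35 to mir-41 lie close together on chromosome II, so they are not separate cases. The lin-4 (2), mir-64 (5), mir-44 (4) and mir-2 (4) families had none either. Past the window, a region with a signal of 18.8 had its summit 259 bp downstream of the start of mir-41 and 383 bp downstream of that of mir-40, both of the mir-35 family. In the mir-58 family, which limits TGF-beta signalling, mir-58a had none, nor had the 6 genes that share the seed GAGAUCA, which are mir-58b, mir-58c, mir-80, mir-81, mir-82 and mir-2209a. That seed group stands in for the listed family, of which 3 of 6 names matched the annotation.

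Of the 260 genes, 152 were intergenic, lying outside every protein-coding gene, 96 were intronic and 12 overlapped an exon. Candidate regions were found at 19 intergenic genes, or 12.5% (7.70 to 18.8), and at 19 intronic genes, or 19.8% (12.4 to 29.2). The difference was -7.29 percentage points, with a 95% Newcombe interval from -17.3 to 1.86 that includes 0. Without mir-54, mir-55, mir-55b and mir-56, which share regions, the difference was -3.80 points. Intronic genes had like shares whether the host was on the same strand (13 of 66, 19.7%) or on the opposite strand (6 of 30, 20%). Of 12 exon-overlapping genes, mir-354 and mir-4813 had a region. The median signal was 17.5 over 24 distinct regions at intergenic genes and 16.8 over 21 at intronic genes.

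Regions at hosted genes lay in the host's own window in a minority of cases. Of 21 intronic or exon-overlapping genes with a candidate region, 7 had it also in the window of the host, among them mir-354 in rps-20, mir-5595 in nurf-1 and mir-5550 in kgb-1. Over the 47 distinct regions near microRNA genes, 12 lay in the window of some protein-coding start, or 25.5%, against 32.3% of all candidate regions. The other 35 lay in none. In 17 genes a region covered some of the precursor itself. The regions are longer than most precursors and the window takes in the start, so some overlap follows from the placement alone. No share to compare it with is given here.

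Summits showed no peak at the annotated start of intergenic microRNA genes. In bins of 250 bp, the bin just upstream of the start held 2.63 summits per 100 intergenic genes, within the range of 1.32 to 5.92 over all bins within 3000 bp. Intronic genes had 8.33 in that bin, below the 11.5 in the bin from 750 to 1000 bp downstream. Protein-coding genes had their highest value just upstream of the start, 5.10, against 1.88 at the lowest. The microRNA bins hold 2 to 9 summits for intergenic and 1 to 11 for intronic genes, and a summit near several genes of a cluster counts for each. The annotated start is the 5′ end of the precursor for most members, with a median length of 95.5 bp, and not the start of the primary transcript. In the window, the nearest summit was upstream in 30 genes and at or downstream of the start in 10, with a median position of -219 bp. The window reaches 1000 bp upstream but only 200 bp downstream, so its shape alone favours upstream summits. These counts therefore show no preference for a side.

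**Figure D4:**
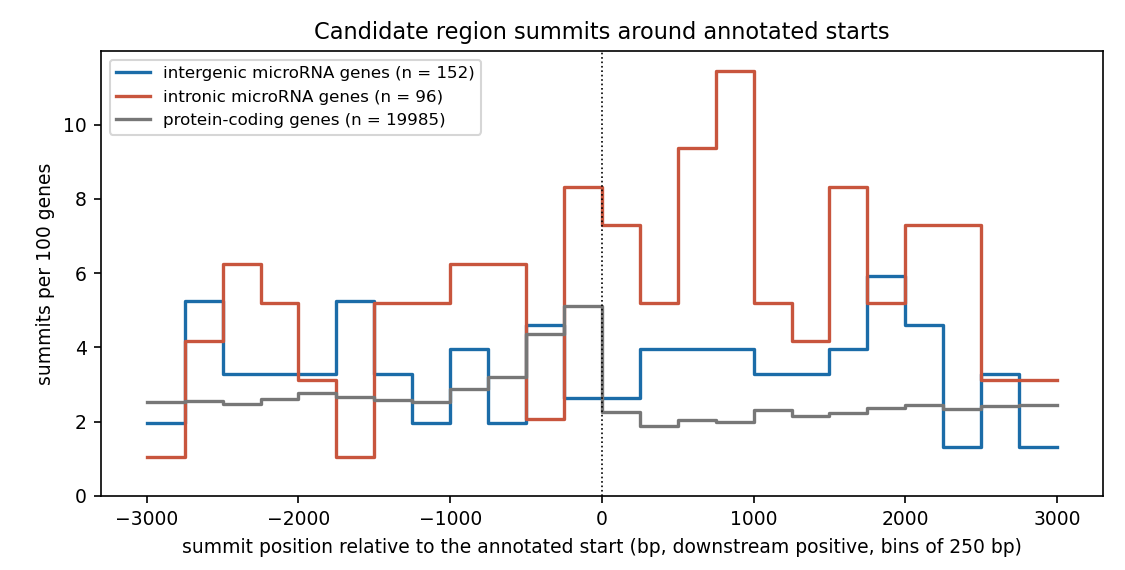
Summits of candidate regions from the list of both replicates together, per 100 genes, in bins of 250 bp around annotated starts (bp). Intergenic microRNA genes range from 1.32 to 5.92 with no peak at the start, intronic microRNA genes reach 11.5 downstream, and protein-coding genes peak at 5.10 just upstream.

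The replicates' own lists held a region in the window of 55 microRNA genes in replicate 1, or 21.2% (against 23.2% of protein-coding genes), and of 66 in replicate 2, or 25.4% (against 23.5%). Both did at 33 microRNA genes, or 12.7% (8.90 to 17.4), against 9.85% of protein-coding and 10.8% of all annotated genes. Of these 33, mir-1828, mir-2218a, mir-241, mir-249, mir-798 and mir-8201 had no region in the list called on both together, and their signals were 6.45 to 9.82. Of the 40 microRNA genes with a candidate region, 27 had a region in each replicate, or 67.5%, against 49.7% of protein-coding and 44.2% of all annotated genes with a candidate region. The 40 genes are not independent, since some share a region, and this difference was not tested. By place, 27 of the 47 distinct regions overlapped a region of each replicate, or 57.4%, against 39.2% of all candidate regions. Another 9 overlapped one of replicate 1 only and 11 of replicate 2 only. Across all 4 lists, 88 microRNA genes had some region, or 33.8% (28.1 to 39.9), and 172 had none. The share was 37.8% of protein-coding and 42.6% of all annotated genes, the first within that interval and the second above it. All annotated genes are those of any biotype, of which 19985 of 46926 are protein-coding, and a region can count for several genes that lie close together.

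The median signal of the 47 regions was 16.9 (95% interval from order statistics 15.9 to 19.8), against 16.6 for the whole list, and 27 of them lay above that list's median. Among the 212 strongest regions of replicate 1 were regions at mir-52, mir-354 and mir-2214, the same genes that had IDR peaks. The IDR list was itself derived from these replicates. No share of protein-coding genes among the strongest 212 regions of a replicate is given here. Among the 212 strongest of replicate 2 were regions at mir-354 and mir-2214, and the region shared by mir-54, mir-55 and mir-56, at rank 204. In replicate 2 the regions in the mir-52 window, at percentiles 95.3 and 98.1, fell outside these 212.

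The X chromosome, which carries 73 of the 260 genes, had no microRNA gene with an IDR peak in the window, for which the Clopper-Pearson upper bound is 4.93%. On the autosomes there were 3 of 187, or 1.6% (0.332 to 4.62). IDR peaks were rare at protein-coding genes too, at 0.330% of them on X and 0.853% on the autosomes, and the value on X lay below the upper bound for the 73 microRNA genes. Candidate regions were found at 11 genes on X, or 15.1%, and at 29 autosomal genes, or 15.5%. Those on X include mir-54, mir-55, mir-55b and mir-56, which share regions at the same locus and are not separate cases. Protein-coding genes had 17.0% on X and 15.7% on the autosomes.

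Some strong regions lay upstream of the window. At mir-2221, an intergenic gene on X, an IDR peak with a signal of 116.5 had its summit 1183 bp upstream, at X:1389489-1389838. At mir-2216, an intronic gene on chromosome II, an IDR peak with a signal of 72.9 lay 1803 bp upstream, at II:10868800-10869149. The candidate summits nearest to the upstream edge were at 941 bp inside it, at mir-2211, and at 1002 bp outside it, at mir-76, with signals of 20.1 and 20.5. At the downstream edge they were at 179 bp inside, at mir-90, and at 248 bp outside, at mir-5592-1, with signals of 16.7 and 14.4. With a window reaching 2000 bp upstream, 68 genes had a candidate region and 5 an IDR peak, against 40 and 3. A longer window can only add genes, and no share of protein-coding genes in it is given here.

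A list of 18 microRNA pathway genes and regulators, not all of which make or use microRNAs, was looked at in the same window. Candidate regions were found at 6 of the 18 genes and IDR peaks at 2, nhl-2 and vig-1, against 15.9% and 0.836% of protein-coding genes. The gene nhl-2 encodes a TRIM-NHL cofactor that enhances repression by let-7 and lsy-6. Its region, III:4899762-4900111, had a signal of 91.1, while replicate 1 had 56.6 and replicate 2 had 33.3, and its summit 852 bp upstream lies also in the window of tag-340. The gene vig-1, whose fly counterpart is part of the RNA-induced silencing complex, had a signal of 51.0 at II:1320440-1320789, with 24.4 in replicate 1 and 25.7 in replicate 2.

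Weaker candidate regions lay at ain-1 (signal 24.7), a GW182 protein, and cgh-1 (24.1), an RNA helicase. Others lay at lin-46 (13.9) and pash-1 (13.1), the partner of Drosha, both close to the list's minimum of 13.0. The lin-46 summit, 954 bp upstream, lies also in the windows of R186.3 and R186.8. Neither replicate had a region in the window of pash-1. No candidate region was found at the Argonaute genes alg-1 and alg-2, at dcr-1, which encodes Dicer, or at drsh-1, which encodes Drosha. Of 10 targets and regulators in the larval timing pathway, 1 had a candidate region, the lin-4 target lin-14, against 15.9% of protein-coding genes. The lin-14 region lay 205 bp upstream, at X:11465180-11465529, with a signal of 29.5 and values of 9.75 in replicate 1 and 19.9 in replicate 2. The others, among them lin-28, lin-41, hbl-1 and daf-12, had none. Of the 10, 0 had an IDR peak, against 0.836% of protein-coding genes.

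The sequence within 100 bp of the summits was searched on both strands for the core of the vertebrate DMRT site, the core of the MAB-3 site and 3 words that had stood out earlier in these data. The DMRT core, ACAATGT or its reverse complement ACATTGT, was in 1 of the 47 regions near microRNA genes, at mir-1817, or 2.13%, against 3.35% of all candidate regions. The MAB-3 core, TGTTGC, was in 4, or 8.51%, against 7.77%. Of the other words, GCAGGGA was in 1, or 2.13%, against 0.700%, and CCCTGCG and CTTGCGC were in none, against 0.381% and 0.878%. The median GC content of these windows was 33.8%, against 29.9% for all candidate regions. In the sequences printed above, the mir-52 and mir-54 windows hold tandem runs of a 3-base unit. A run of at least 5 copies was in 2 of the 47 windows, or 4.26%, these same windows, against 0.479% of all candidate windows, where 54 of 11281 had one. The runs were searched for after the sequences had been seen, and whether they bear on the mapping of reads there was not tested.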

How the data were processed

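Per the deposited file descriptions, the authors called regions on ce11 alignments for each replicate and for both together with a control alignment, and derived the IDR list from these. The aligner, the peak caller and the IDR threshold, and which control was used, were not stated in any source used here. In the deposited lists, signal is the authors' enrichment value of a region, and the other value used is the authors' deposited summit offset in bp. Lists on ce10 were not used.

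Genes came from Ensembl release 115; let-7 is listed there under another name and took the RefSeq symbol of the same gene ID. Background counts used the 5′ end of each gene, while a region lay in a protein-coding window if any transcript start qualified. Mature sequences came from RefSeq on the same assembly. Window assignment was tested on simulated data. Tools were Python 3.11.15, numpy 2.4.6, pandas 2.3.3, scipy 1.17.1, statsmodels 0.14.6, Biopython 1.88 and matplotlib 3.10.9.

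Genes described in full were those with an IDR peak and the 15 others with the highest signal, with let-7, lin-4, lsy-6, seed families, the pathway list and the larval timing list. The members and lists were chosen with earlier results of these data known. Alternatives were other windows, any overlap, nearest start only, shared regions counted once, stronger regions and each replicate alone. Replicates are samples that the labels call biological replicates; no test was made between groups.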

Additional observations from a re-analysis of the deposited data

How the results depend on the processing

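Of 37 alternative values, 27 kept within 1.5 times of a count, or within the interval of a difference or median, and 10 moved. The cause was not tested where the alternative's own construction does not give it. With a window of 500 bp upstream to 100 bp downstream, 26 microRNA genes had a candidate region, against 40, and 15 had a region in both replicates, against 33. With 2000 bp upstream these counts were 68 and 60, and 5 genes had an IDR peak, against 3. Regions above their list's median signal left 25 genes with a candidate region, 14 with a region in both replicates, and 1 with an IDR peak, mir-354. With each replicate alone, leaving out the other in turn, 55 to 66 genes had a region, and 3 to 5 had one among the 212 strongest. For the latter no share of protein-coding genes is given. The difference between intergenic and intronic genes ran from -9.54 to -0.658 points, nearest to 0 where each region went to its nearest start only, and the median signal from 15.9 to 17.9. Leaving out mir-54, mir-55, mir-55b and mir-56, added after seeing the data, gave 36 genes with a candidate region and 29 with a region in both replicates. No paired analysis was possible because there is 1 group and no second condition. Without reads, depth sets no limit that can be stated here.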
